A study of Mus musculus with 18 samples.

Results

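Residual CpG methylation was examined in mouse embryonic stem cells that lack their own Dnmt1 and were rescued with DNMT1 carrying W464A/W465A, in which 2 neighbouring tryptophans are replaced by alanine. Cells rescued with wild-type (WT) DNMT1 were the reference. The comparison uses 6 of the 18 libraries of the series, 3 biological replicates per group, chosen by the genotype in the labels. Both groups share the Dnmt1 knockout, the pPyCAGIP vector that drives the transgene, and more than 2 weeks of puromycin selection. Multiple stable lines were made per group, and the labels do not say whether replicates are separate lines, so p-values measure only the spread between these samples. The assay, enhanced reduced representation bisulfite sequencing (eRRBS), sequences bisulfite-converted fragments of a digest with MspI, BfaI and MseI and so reads CpG-rich sequence most. The other 12 libraries, 3 each, carry DNMT1 with W796A, W465A, W465A/W796A or W464A/W465A/W796A and are used only where they bear on the residual methylation. Knockout cells carrying the empty vector were not used here, so methylation that remains without any DNMT1 was not measured.

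DNMT1 copies methylation onto the new DNA strand after replication. Its RFTS domain, which contains the mutated tryptophans, recognises ubiquitinated histone H3 and H3K9me3 and releases the enzyme from autoinhibition at replicated chromatin. In embryonic stem cells DNMT3A and DNMT3B can add methylation anew, and they are known to prefer some bases around the CpG over others.

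Of the 21867550 CpGs of the GRCm38 genome in the count table, 2269361 (10.4%) had at least 5 reads in each of the 6 libraries. Median coverage of these CpGs lay between 10 and 23 reads. In all 3 mutant libraries the 11 housekeeping promoters tested averaged between 0.465% and 0.611% methylation, an upper limit on incomplete conversion there. Some libraries stood apart in their read share per chromosome, expressed as log2 over the median share of the 18 libraries. Chromosome 6 stood at 0.43 in mutant replicate 1 and 0.50 in mutant replicate 3, against 0.02 in mutant replicate 2, and chromosome 12 at -0.12, -0.17 and 0.03. Chromosome 8 stood at 0.48 in WT replicate 1 and 0.15 in mutant replicate 3, and chromosome 11 at 0.49 and 0.51 in WT replicates 1 and 2. Mutant replicate 2 was at 0.09 on chromosome 4, and the 14 other autosomes stayed between -0.09 and 0.05 in these libraries. Mutant replicates 1 and 3 were also the closest pair by methylation. Their squared differences per CpG averaged 1.36 times sampling noise, against 1.60 and 1.62 for the pairs with replicate 2. This excess cannot show that replicates 1 and 3 are independent, because PCR duplicates cannot be told from molecules. Both were kept as separate samples, as their labels give biological replicates. Whether they share a parent line was not tested.

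The sequences below are taken from the reference to show where methylation was lost or kept. Each is the 100-base unmasked window with most usable CpGs in 1 named 1 kb tile, on the plus strand of GRCm38. Every CpG is in capitals, usable or not. In the Gm16405 window only the last 4 of the 7 CpGs were usable, and in the others all were. The first comes from a tile with one of the largest losses and the other two from tiles with the highest residual level.
Near Gm16405, chrX:54180210-54180309: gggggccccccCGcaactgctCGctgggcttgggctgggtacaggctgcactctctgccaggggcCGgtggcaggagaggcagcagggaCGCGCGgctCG
Slc39a11 intron, chr11:113555319-113555418: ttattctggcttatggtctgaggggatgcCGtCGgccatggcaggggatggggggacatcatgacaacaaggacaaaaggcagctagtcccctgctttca
Msh3 intron, chr13:92217186-92217285: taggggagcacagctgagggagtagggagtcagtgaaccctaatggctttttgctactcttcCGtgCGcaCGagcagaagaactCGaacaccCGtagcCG

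The mutant kept 31% of the WT methylation at these CpGs, spread at a low level over most of them. With each CpG counted once, the mean level was 46.8%, 59.3% and 56.8% in WT replicates 1 to 3, and 15.6%, 19.4% and 15.5% in W464A/W465A replicates 1 to 3. WT replicate 1 was the lowest of its group and mutant replicate 2 the highest of its own, and the groups did not overlap. The difference was -37.5 percentage points, with a standard error of 4.03 (exact two-sided permutation p 0.1, the smallest that 3 libraries against 3 allow). The retained share, which is the mutant level divided by the WT mean, was 31% over all these CpGs. The difference depended strongly on the coverage minimum. At 10 reads it was -24.2 points over 644348 CpGs, and at 20 reads -7.26 points over 119401 CpGs, of which 63.1% lay in promoters against 18.2% at 5 reads. The retained share was 29.9% and 26.1% in these subsets.

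Single CpGs showed the same spread of low levels rather than an on or off pattern. Of the 1189608 CpGs with at least 50% in every WT library, 1.97% kept at least 50% in every mutant library and 1.43% had no methylated read in any of the 3. Between 6.84% and 11.7% of CpGs reached 50% in a mutant library, against 55.2% to 69.1% in a WT library.

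In 1 kb tiles with at least 3 usable CpGs, the median level was 64.5%, 81.8% and 80.0% in the WT libraries. It was 18.8%, 23.8% and 18.4% in the mutant libraries. The largest class of mutant tiles lay between 20% and 40%, with 38.4% to 44.0% of tiles, while 0.431% to 1.33% of mutant tiles lay between 60% and 80%. WT replicate 1 peaked between 60% and 80% and the other WT libraries between 80% and 100%.

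**Figure D1:**
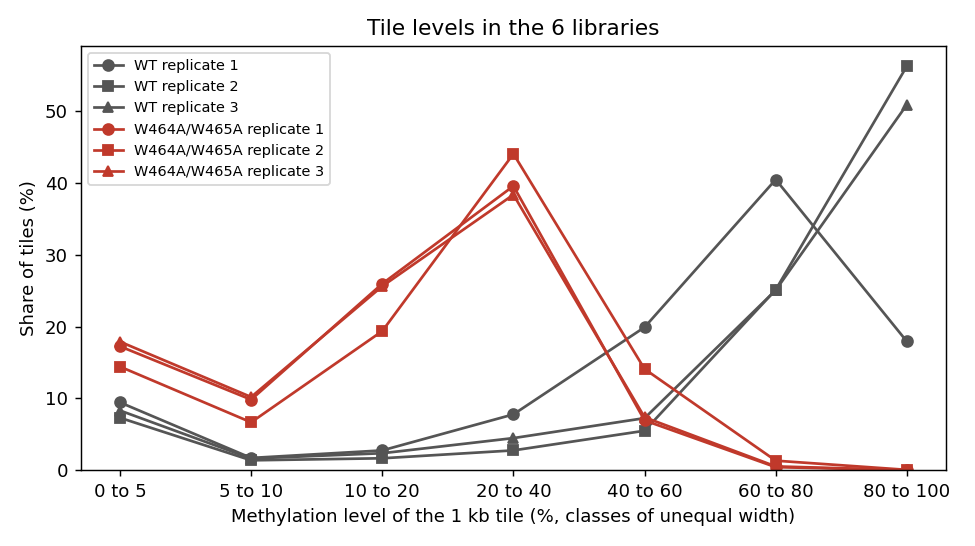
Share of the 261432 tiles (y axis, %) in each class of methylation level (x axis, %; the classes have unequal widths), 1 line per library, WT in grey and W464A/W465A in red. The mutant libraries peak between 20% and 40% and hold at most 1.33% of tiles in each class from 60% up.

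The quasi-binomial model called 232779 of 261432 tiles lower in the mutant, a share of 89%. A call needed an adjusted p (Benjamini-Hochberg) below 0.05 and 10 points or more between the pooled levels of the groups, while the differences printed for single tiles and promoters are between the means of library levels. It called 1 tile higher (0.000383%). Without any test, all 3 mutant libraries lay below all 3 WT libraries in 89.4% of tiles. Limma and edgeR called 232548 and 233272 tiles lower and the same number, 1, higher. Against the global change, that is with an offset for each library's overall level, 33155 tiles were lower and 1340 higher, so the split between lower and higher calls depends on this scaling.

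The tiles that lost most fell from nearly full methylation to near 0. By the naming rule these were the 10 called tiles with the largest difference, 1 per gene. The exonic tile of Nefm, which encodes the medium neurofilament chain, had 87.2%, 97.6% and 100% in WT and 2.78%, 7.14% and 0% in the mutant. The difference was -91.6 points, with an adjusted p of 8.06e-05 by the quasi-binomial model.

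The intergenic tile on the X chromosome whose nearest gene is Gm16405, 350208 bp away, had 100%, 100% and 95% in WT and 0%, 11.1% and 3.57% in the mutant (adjusted p by the quasi-binomial model 0.000141). Its printed window held 4 usable CpGs with 5 to 9 reads each, and only 2 of the 12 mutant values there were above 0, at 44.4% in replicate 2 and 14.3% in replicate 3. The other tiles of this group were in an intron of Ptchd4 and of Gdpd4, a glycerophosphodiester phosphodiesterase gene, or between genes with the nearest gene Mc4r, Gm21739, Cdh7, Obp2b, Gli3 or Rab28. Mc4r encodes a melanocortin receptor, Cdh7 a cadherin and Gli3 a transcription factor of Hedgehog signalling. Their differences lay between -92.1 and -88.5 points, and no adjusted p was above 0.000141. The nearest gene says only where a tile lies: Cdh7 was 1169431 bp from its tile and Rab28 585976 bp.

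The tiles with the highest residual level kept about 60% in every mutant library. These 10 tiles had at least 5 usable CpGs each, and 8 of them lay in introns, among them introns of Slc39a11, Msh3, Fam135a, Adgrl2, Klf12, Gli2 and Sspn. Counted by usable CpGs, 46.6% were intronic over all tiles with 20 reads per library, and 52.5% over those with at least 70% in every WT library. So few tiles, chosen by their level, cannot show a preference for introns. In the intron of Slc39a11, a zinc transporter gene, WT had 93.3%, 89.1% and 95.0% and the mutant 62.3%, 63.0% and 63.8%. In the intron of the mismatch repair gene Msh3, WT had 74.1%, 95.2% and 97.8% and the mutant 65.2%, 66.7% and 62.1%. Groups did not overlap in either tile, and within the Msh3 window printed above single CpGs ranged from 27.3% to 90.9% in the mutant.

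Both tiles were called lower, at -29.4 points (adjusted p 0.00121) and -24.4 points (adjusted p 0.00673) by the quasi-binomial model. The highest mean of the 10 was in the intron of Gli2, a Hedgehog transcription factor, with 58.0%, 68.8% and 72.5% in the mutant and 96.9%, 97.8% and 100% in WT. All 10 tiles were called lower. The Sept11 call was lost without any 1 of WT replicate 2, WT replicate 3, mutant replicate 2 or mutant replicate 3 (adjusted p 0.0507 to 0.0954), and the Fam135a call without WT replicate 2 (adjusted p 0.0934). Without shared information on the spread the Msh3 and Fam135a calls were lost (adjusted p 0.0501 and 0.0532).

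The W464A/W465A/W796A libraries played no part in choosing these tiles, though they carry the same substitutions. Their median level was between 39.8% and 68.8% in the 10 tiles of high residual level, and between 3.13% and 19.12% in the 10 tiles of largest loss. These are extreme tiles. Over 134835 tiles methylated in W796A, tile levels of W464A/W465A and W464A/W465A/W796A libraries correlated with r between 0.435 and 0.544. Among W464A/W465A libraries r was between 0.482 and 0.523. Whether the residual level belongs to the place was not tested.

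The 1 tile called higher, chr17:23548001-23549000, lay 7767 bp from Zfp213, a zinc finger gene. It had 3.12%, 0.995% and 1.23% in WT and 18.8%, 3.85% and 16.5% in the mutant, so the gain was in replicates 1 and 3 (11.3 points, adjusted p 0.00488 by the quasi-binomial model). Without mutant replicate 1 its pooled difference was 9.95 points, below the 10-point minimum. The tile had 6.31% to 11.7% in the 3 W796A libraries.

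Among tiles with at least 20 reads in each library, 79429 had at least 70% in every WT library. Of these, 2407 (3.03%) kept at least 40% in every mutant library, and 29 (0.0365%) fell to at most 5% in every one. In the kept class 61.3% of usable CpGs were intronic, against 52.5% over all 79429 tiles, and 11.1% were repeat-masked, against 15.0%. In the emptied class 58.6% were intergenic, against 32.7%, and 60.5% were repeat-masked, and the 100 kb around them had a mean GC content of 40.4% against 45.3%. These classes were chosen by the mutant levels and their makeup is a description. Levels in libraries that did not choose these classes were taken where those libraries also had at least 20 reads each. With W464A/W465A/W796A the kept class (2189 tiles) had 41.6%, 45.6% and 38.1%. Over 73494 of the 79429 tiles these libraries had 27.8%, 31.9% and 25.9%. With W465A alone the kept class (1995 tiles) had 59.7%, 49.1% and 50.4%, against 47.5%, 34.4% and 35.6% over 69221 tiles. In both cases each library was higher in the kept class than over the larger set.

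Tiles with more methylation kept a larger share of it. To sort tiles without using the 6 libraries, they were grouped by their level in the W796A libraries. Where W796A had 10% to 20%, WT had a mean of 15.1% and the mutant 2.86%, 3.65% and 2.86%, a retained share of 20.6% ± 3.00 (SD over 3 mutant libraries). Between 40% and 60% the retained share was 24.8% ± 3.59 (SD, n = 3), and between 70% and 80% it was 30.7% ± 4.10 (SD, n = 3). From 90% up, WT had a mean of 84.8% and the mutant 30.1%, 36.0% and 30.0%, a retained share of 37.8% ± 4.03 (SD, n = 3). In every mutant library the share rose from class to class between 10% and 100%. Below 5% both groups were near the conversion limit, with 1.2% in WT and 0.441% in the mutant.

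**Figure D2:**
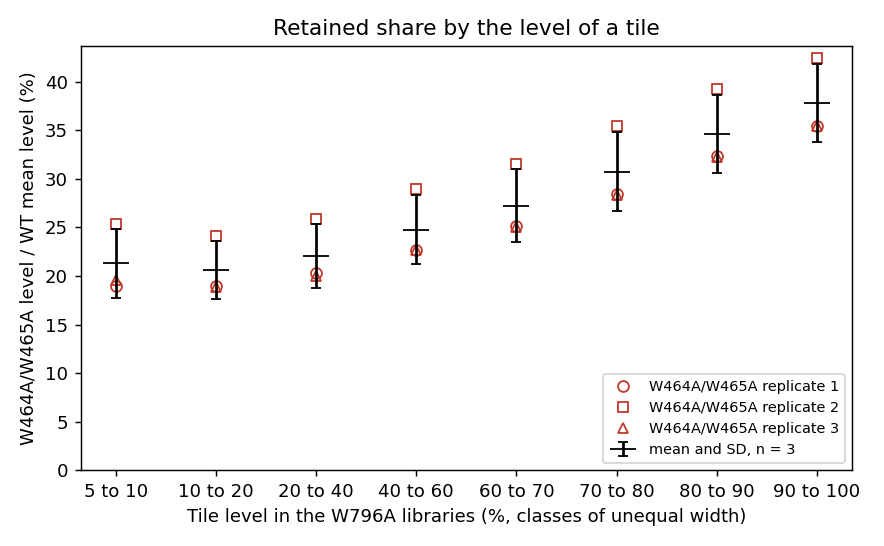
Retained share of the WT mean level (y axis, %) in tiles grouped by their level in the W796A libraries (x axis, %; unequal widths, tiles under 5% not shown). Red symbols are the 3 W464A/W465A libraries and black bars their mean and SD; the share is 21.3% in the first class and rises from 20.6% in the second to 37.8% in the last.

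The retained share also varied with the bases on either side of the CpG. CpGs with 1 to 5 CpGs within 250 bp, themselves included, were divided by the 2 bases before and the 2 bases after the CpG (NNCGNN, both strands read as one class). In the class TACGTA (1638 CpGs) the level was 73.8%, 84.9% and 82.9% in WT and 38.1%, 45.6% and 39.1% in the mutant. In the class AACGTT (2810 CpGs) it was 44.6%, 67.4% and 64.6% in WT and 9.21%, 13.8% and 9.29% in the mutant. Mutant replicate 2 was the highest of its group in both classes, and the 2 groups of libraries did not overlap in either. The retained share was 50.8% ± 5.10 (SD, n = 3) in TACGTA and 18.3% ± 4.49 (SD, n = 3) in AACGTT.

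Over the 109 classes with at least 1000 CpGs, a minimum chosen after the values were seen, the retained share ran from 18.3% to 50.8% with a median of 30.2%. The next highest were GCCGTA with 45.6%, CCCGTA with 43.8%, TACGCA with 43.5% and CTCGTA with 42.7%. The lowest after AACGTT were AACGCT with 19.5%, ATCGTG with 20.2%, AACGAT with 20.5% and AACGAC with 20.6%. Without the minimum, the 5 highest also included GCCGGA (70 CpGs) and GCCGGC (45 CpGs), and the 5 lowest ATCGCG (189 CpGs) and ACCGGT (31 CpGs). The 3 of these that hold CCGG, the site MspI cuts, had at most 11% in WT on average.

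The outer bases alone ordered the classes in the same way. With N for any base and CCGG left out, TNCGNA (27070 CpGs) had 27.0%, 33.7% and 26.6% in the mutant, a retained share of 36.9% ± 5.03 (SD, n = 3). ANCGNT (33780 CpGs) had 14.8%, 19.8% and 14.4%, a share of 22.5% ± 4.12 (SD, n = 3). WT means were 78.8% and 72.6%. The 4 combinations with A as the first base were the 4 lowest of 10, at 28.3% or less, and the 3 combinations with A as the last base and no A first were 3 of the 4 highest, at 32.5% or more.

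**Figure D3:**
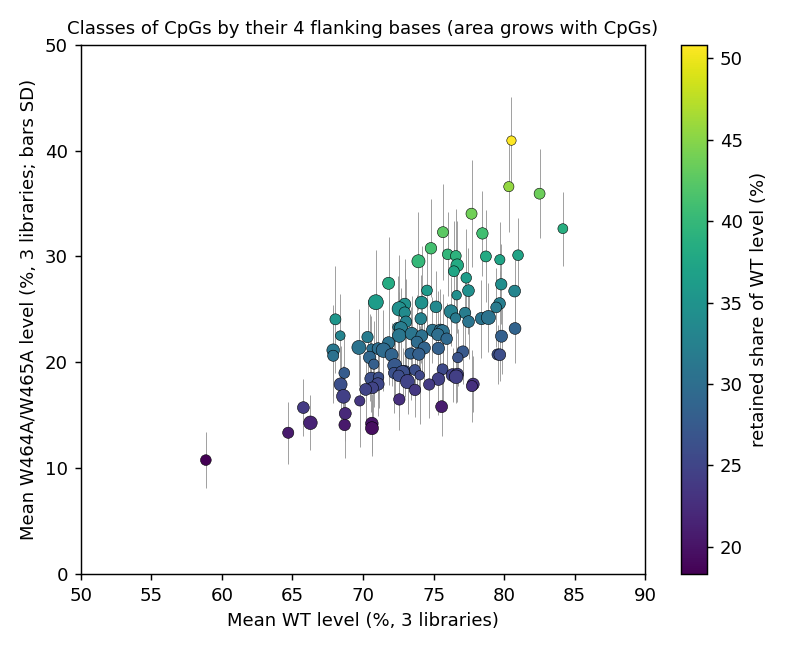
Mean level with W464A/W465A (y axis, %, bars SD over 3 libraries) against mean WT level (x axis, %) for the 109 classes of flanking bases with at least 1000 CpGs, coloured by retained share, each point larger with more CpGs. Most classes lie between 65% and 85% in WT, where the mutant levels run from 13.8% to 40.9%.

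As log2 of the TACGTA level over the AACGTT level, WT libraries had 0.73, 0.33 and 0.36 and mutant libraries 2.05, 1.72 and 2.07. Both classes were chosen on this contrast, so it has no test. Groups that played no part in the choice gave 2.09, 2.00 and 2.17 with W464A/W465A/W796A and 0.51, 0.22 and 0.34 with W796A, which did not overlap (difference 1.73, exact two-sided permutation p 0.1, the smallest possible). W465A alone had 1.45, 1.96 and 1.93, and W465A/W796A 1.01, 1.12 and 1.18. In the mutant the mean ratio was 2.38, 2.02, 1.98, 1.84 and 1.93 from the lowest to the highest quintile of GC content of the surrounding 100 kb, 1.90 in introns and 2.00 between genes. At single-copy CpGs outside masked repeats it was 1.94. Levels of the 109 classes correlated with r between 0.978 and 0.996 among the mutant libraries, between 0.958 and 0.992 with the W464A/W465A/W796A libraries, and between 0.536 and 0.698 with the WT libraries. These are correlations over classes that share libraries and read depth, given as a description.

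The contrast of the classes ACGT and CCGG, taken by their direct neighbours alone, rests on 658 CpGs of CCGG, which had a mean of 8.95% in WT. The other classes of direct neighbours had 69.5% to 78.6%. CCGG is the site MspI cuts, and whether reads there give the methylation of the genome was not tested. The contrast can therefore not be read as a base preference. The log2 level of ACGT over CCGG was 2.91, 2.99 and 3.01 in WT and 2.89, 2.71 and 2.73 in the mutant, a difference of -0.19 with a standard error of 0.0633. The libraries did not overlap (exact two-sided permutation p 0.1, adjusted 0.12 over 6 contrasts), and at CpGs with at least 10 reads the difference was -0.0112.

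Along the genome, counted over CpGs, the residual level was lowest in GC-poor domains. Domains of 100 kb were ranked by reference GC content and split into quintiles, and CpGs with up to 10 CpGs within 250 bp outside promoters were compared. In the lowest quintile, below 38.1% GC, the mutant had 14.9%, 20.9% and 14.1%, and in the highest quintile, above 45% GC, it had 22.0%, 27.4% and 22.0%. WT means were 74.5% and 72.7%. The retained share rose from 22.3% ± 4.98 (SD, n = 3) over 26.3%, 30.3% and 32.8% to 32.7% ± 4.31 (SD, n = 3). The log2 level of the lowest minus the highest quintile was -0.56, -0.39 and -0.64 in the mutant and 0.03 on average in WT, a difference of -0.56 with a standard error of 0.0770. The libraries did not overlap (exact two-sided permutation p 0.1, adjusted 0.12 over 6 contrasts).

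The gradient was also present at single-copy unmasked CpGs, where the retained share rose from 21.2% to 31.9% between genes and from 24.9% to 33.4% in introns. It was not seen among the 9902 domains with at least 50 of the CpGs compared first, masked and multi-copy ones included. From the lowest quintile to the highest, their median retained share was 31.8% (11 domains), 32% (117), 32.2% (1091), 33% (3661) and 32.6% (5022). The gradient was thus in domains with fewer usable CpGs, and their part in the result was not tested further. At CpGs with 5 reads in all 18 libraries the same log2 contrast was -0.50, -0.37 and -0.57 with W464A/W465A, -0.33, -0.34 and -0.38 with W464A/W465A/W796A, and -0.25, -0.47 and -0.40 with W465A. The W464A/W465A values overlapped those of both other mutants (exact two-sided permutation p 0.2 and 0.4). With W465A/W796A the values were -0.10, -0.18 and -0.16, with no overlap (p 0.1).

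Among the 9902 domains the mutant level ran from 8.46% to 40.9% with a median of 24.2%. The retained share lay between 27.5% and 37.8% in the middle 80% of domains. Domain levels correlated with r between 0.755 and 0.807 among mutant libraries, and between 0.716 and 0.795 for same-numbered libraries of W464A/W465A and W464A/W465A/W796A, across domains that are not independent replicates. The lowest domain by its highest mutant library held Prl2c3, a prolactin family gene, with 54.4%, 75.2% and 77.3% in WT and 7.97%, 10.7% and 7.20% in the mutant. The next held the secretoglobin genes Scgb2b2 and Scgb1b2, with 63.3%, 71% and 77.9% in WT and 6.43%, 10.9% and 8.05% in the mutant. Both belong to families of near-identical copies, so their read placement is uncertain.

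The highest domain, by its lowest mutant library, held Crim1 and Fez2. It had 79.6%, 86.4% and 90.1% in WT and 40.9%, 44.5% and 37.4% in the mutant. It was followed by domains in Arl15, Runx1, Abcc4, Wwox and Mgmt, which had between 34.8% and 41.7% in every mutant library. Runx1 is a transcription factor of blood formation and Mgmt a DNA repair enzyme. The same 6 domains had between 26.3% and 41.5% with W464A/W465A/W796A.

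Sex chromosomes kept less. At sparse CpGs outside promoters, meaning at most 10 CpGs within 250 bp, the mutant had 16.4%, 22.2% and 16.2% on X (3145 CpGs) and 10.5%, 14.9% and 8.94% on Y (204 CpGs). Autosomes had 21.5%, 27.0% and 21.3%. WT means were 71.4%, 74.6% and 73.8%. The retained share was 25.6% on X, 15.3% on Y and 31.6% on autosomes. Over all CpGs, promoters and dense ones included, it was 23.2% on X and 15.6% on Y, while single autosomes lay between 29.8% and 31.7%. Median coverage of the sparse CpGs was 7 to 14 reads on X and 9 to 19 on autosomes. These differences were not tested, and the few Y CpGs limit that value.

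CpG density, gene feature and repeat masking spanned smaller ranges of the retained share than domain GC content. The share was 29.9% ± 4.83 (SD, n = 3) with 1 to 5 CpGs within 250 bp, 32.6% with 6 to 10, 30.6% with 11 to 20 and 25.02% ± 3.04 (SD, n = 3) with over 20. In the densest class WT had a mean of 8.50% and the mutant 1.98%, 2.43% and 1.98%. The conversion limit, 0.465% to 0.611%, is a larger part of these mutant levels than of those in the sparser classes. The log2 contrast of the sparsest and the densest class was higher in the mutant by 0.23 (exact two-sided permutation p 0.1, adjusted 0.12, no overlap). By coverage this contrast turned to -0.0446 at CpGs with at least 20 reads.

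Introns kept 32.5% ± 4.05 (SD, n = 3) and intergenic CpGs 29.2% ± 4.2 (SD, n = 3), with WT means of 67.01% and 67.5%. Promoters, within 500 bp of a transcription start, kept 28.4% ± 3.66 (SD, n = 3) of a WT mean of 4.68%. The mutant level there was 1.23%, 1.53% and 1.23%, close enough to the conversion limit of 0.465% to 0.611% for unconverted reads to raise the share. No correction for this was made, here or in the contrast that follows. The contrast of intergenic and promoter CpGs was 0.02 with overlapping libraries (exact two-sided permutation p 0.7), and its sign changed with the coverage minimum. By distance to the nearest protein-coding start, sparse CpGs kept least between 500 and 1000 bp, with 24.4%, and most between 20000 and 100000 bp, with 33.01%.

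**Figure D4:**
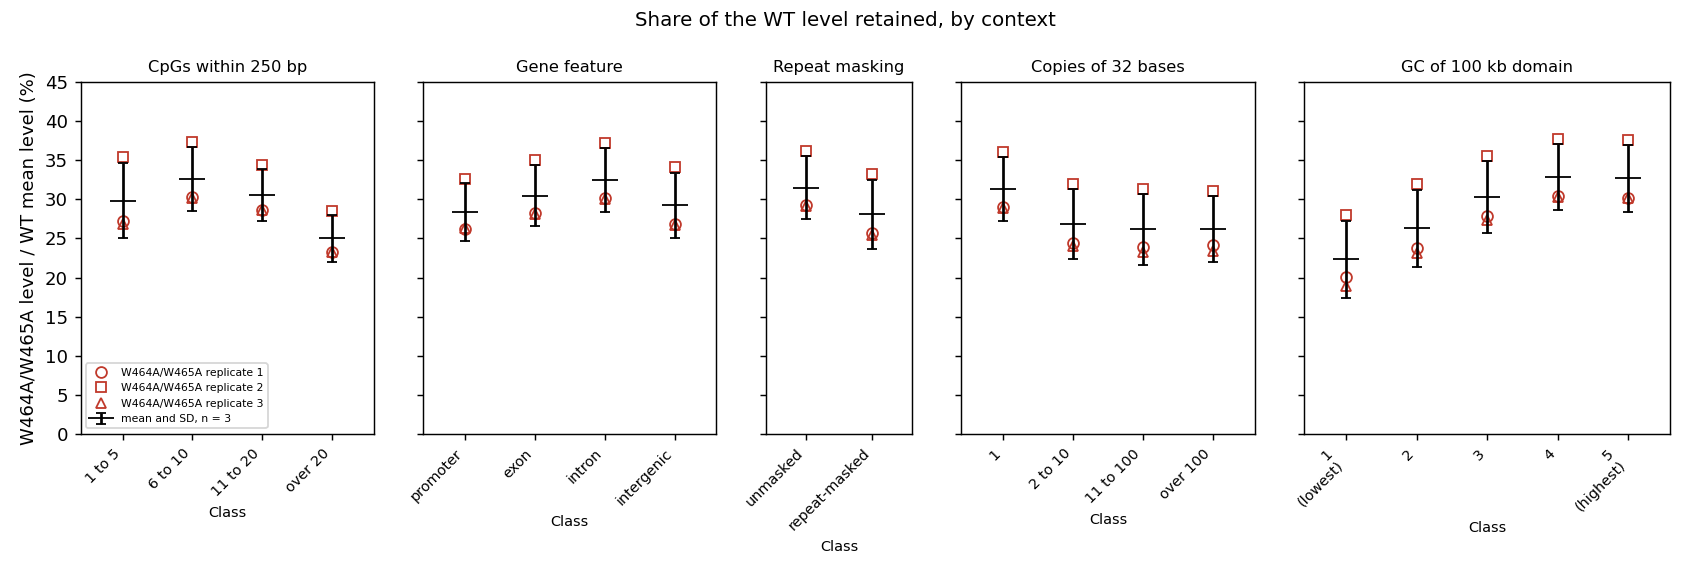
Retained share of the WT mean level (y axis, %) by number of CpGs within 250 bp, gene feature, repeat masking, genomic copies of the 32 bases around the CpG and GC content of the 100 kb domain (x axes, classes). Red symbols are the 3 W464A/W465A libraries, black bars their mean and SD; replicate 2 is highest in every class and the largest range, 22.3% to 32.8%, is over domain GC.

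Repeat-masked CpGs kept 28.1% ± 4.41 (SD, n = 3) and unmasked ones 31.5% ± 4.03 (SD, n = 3). The log2 contrast differed by -0.17 (exact two-sided permutation p 0.1, adjusted 0.12, no overlap). CpGs whose surrounding 32 bases occur once in the genome kept 31.4%, and those with over 100 copies 26.2% (contrast -0.26, exact two-sided permutation p 0.1, adjusted 0.12, no overlap). Copies were not uniform: between 1000 and 10000 copies the share was 24.2%, and with over 10000 copies 37.7% ± 5.27 (SD, n = 3). The last class held 3495 CpGs and rests on few sequences. The sequences printed below as High 1 and High 3 gave 1064 and 905 of them, and 1 with 12728 copies gave 907. Their shares were 50.5%, 38.6% and 35.8%, while a sequence with 12831 copies (221 CpGs) kept 15.1%. Copy number and sequence were not separated. Other mutants were compared at the 1424423 CpGs with 5 reads in all 18 libraries. There the log2 level of CpGs with over 100 copies minus single-copy CpGs was 0.12, 0.16 and 0.07 with W464A/W465A. It was 0.23, 0.36 and 0.52 with W464A/W465A/W796A, without overlap (exact two-sided permutation p 0.1). W465A alone had 0.20, 0.10 and 0.16, which overlapped W464A/W465A (exact two-sided permutation p 0.5). Mean levels there were 14.7% with W464A/W465A and 14.6% with W464A/W465A/W796A, with overlapping libraries.

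Single repeated sequences differed widely in what they kept. Among the 43 sequences of 32 bases with at least 200 usable CpGs, the retained share ran from 9.87% to 50.5%, with a median of 20.7%. The 3 highest and 3 lowest are printed without their outermost bases, with the measured CpG in capitals, and were chosen by these values. The sequences named High 1 and High 3 lie in the B1 short interspersed element and High 2 in the B2 element, while the families of the low ones were not assigned.
High 1: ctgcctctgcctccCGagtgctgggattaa
High 2: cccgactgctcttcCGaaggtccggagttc
High 3: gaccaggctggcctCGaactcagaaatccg
Low 3: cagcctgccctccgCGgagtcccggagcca
Low 2: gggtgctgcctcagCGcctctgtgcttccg
Low 1: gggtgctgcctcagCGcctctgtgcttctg

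High 1 had 61.6%, 79.5% and 71.8% in WT and 32.8%, 41.3% and 33.4% in the mutant over 1064 CpGs. High 2 had 76.5%, 88.8% and 86.6% in WT and 34.6%, 39.7% and 34.0% in the mutant. Low 1 had 24.96%, 44.9% and 20.1% in WT and 2.86%, 3.86% and 2.17% in the mutant. Libraries of the 2 groups did not overlap in any of these 3. The 3 high sequences had a mean of 6.86 to 8.09 CpGs within 250 bp and the 3 low ones 23.7 to 28.1. WT replicate 3 was the lowest WT library in Low 1 and Low 2. How reads with several possible positions were placed is not given in the sources used here.

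At promoters the loss concerned the minority that WT methylates. The quasi-binomial model called 1904 of 13858 protein-coding promoters lower (13.7%) and 0 higher (0%; 127 higher at an unadjusted p below 0.05), with a median difference of -0.33 points over all of them. Limma called 2026 and 0, and edgeR 2054 and 0. The count lower fell to 685 without mutant replicate 1, 809 without replicate 3, 869 without replicate 2 and 890 without WT replicate 2, and to 683 without shared information on the spread. With an offset for the global level 172 were lower and 901 higher. Of 843 promoters over 50% in every WT library with at least 20 reads, 827 were called lower, and their median fell from 77.9% in WT to 22.1% in the mutant.

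The promoters of that group with the highest residual level were those of Il13, Pecam1, Ucp3, Ftcd, Gm21886, Epb42, Dhrs7c, Krt83, Tlr9 and Cdh23. At Krt83, a hair keratin gene with 21 usable CpGs, WT had 81.0%, 91.6% and 89.2% and the mutant 37.9%, 52.2% and 40.1%. At Il13, an interleukin gene, WT had 75.7%, 89.0% and 81.6% and the mutant 44.6%, 44.2% and 48.0%. Both were called lower, at -43.9 points (adjusted p 0.00572) and -36.5 points (adjusted p 0.00979) by the quasi-binomial model, and all mutant libraries lay below all WT libraries. For Il13 the adjusted p rose to between 0.0511 and 0.0566 without any 1 mutant library. The calls of Ucp3, Epb42 and Tlr9 were lost in the same 3 cases and without WT replicate 2 (adjusted p 0.0572 to 0.101), and that of Epb42 also with limma and edgeR (adjusted p 0.0782 and 0.0859). Those of Ftcd, Dhrs7c and Cdh23 were lost without mutant replicate 1, the first also without mutant replicate 2 and the other two without WT replicate 2 (adjusted p 0.0520 to 0.0666).

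The lowest residual levels were at Hr, Pcdha8, Fcgrt, Nwd1, Ptgdr2, Lrrc3c, Mmrn2, Gm9913, Serpina1c and Parp10. Pcdha8, a clustered protocadherin gene with 17 usable CpGs, had 66.2%, 84.8% and 81.7% in WT and 0.711%, 1.47% and 4.24% in the mutant. Hr, a nuclear corepressor gene, had 65.7%, 79.4% and 80.0% in WT and 3.08%, 2.56% and 1.67% in the mutant. The differences were -75.4 points (adjusted p 0.00338) and -72.6 points (adjusted p 0.00256) by the quasi-binomial model. W464A/W465A/W796A had 1.15% to 4.35% at Pcdha8 and 10.8% to 17.7% at Hr. The calls of Lrrc3c and Parp10 were lost without mutant replicate 1 (adjusted p 0.0509 and 0.0654), and that of Parp10 also without mutant replicate 3 and without WT replicate 2 (adjusted p 0.0521 and 0.0588). Without shared information on the spread, the calls of Il13, Ucp3, Ftcd, Epb42, Dhrs7c, Tlr9 and Parp10 were lost (adjusted p 0.0509 to 0.0730).

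Germline gene promoters, which DNA methylation silences in somatic and stem cells, were the listed group with most calls. Of 35 listed genes 30 could be tested, and 21 were called lower (70%, against 13.7% of all promoters), with none higher. The median difference was -35.2 points. All 18 with over 20% in every WT library were called lower. The 13.7% includes promoters with too little methylation in WT for a call. Of all 843 promoters over 50% in every WT library with at least 20 reads, 827 were called lower. Whether germline promoters differ from others of like WT level was not tested. Leaving out any 1 mutant library reduced the 21 calls to 9, fitting without shared information on the spread gave 8, and leaving out WT replicates 1, 2 or 3 gave 21, 15 and 17.

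Residual levels at these promoters ranged widely. Dazl, an RNA-binding protein of germ cells, with its promoter at chr17:50293136-50294136, had 62.5%, 84.7% and 78.5% in WT and 19.99%, 19.5% and 15.1% in the mutant over 44 CpGs (-57.0 points, adjusted p 0.00552 by the quasi-binomial model). Dpep3, a testis dipeptidase, had 81.8%, 88.9% and 93.4% in WT and kept 26.6%, 28.6% and 23.9% in the mutant. At Smc1b, the meiotic cohesin subunit, WT had 21.8%, 33.9% and 15.9% and the mutant 0.667%, 0% and 0.302%.

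Mutant libraries lay below WT libraries at each of these 3. The meiotic chromosome axis genes Sycp2 and Hormad2 also fell, to 2.73% ± 0.69 (SD, n = 3) from 33.3% ± 13.7 (SD, n = 3) and to 2.85% ± 1.10 (SD, n = 3) from 32.4% ± 15.9 (SD, n = 3). Tdrd9, a helicase of the piRNA pathway, kept most, with 52.8%, 21.6% and 19.05% in the mutant against 73%, 92.9% and 75% in WT. That value rests on 3 CpGs, mutant replicate 1 stood apart there, and the call was lost without any library other than mutant replicate 1 (adjusted p 0.0513 to 0.144). Tdrd5, Hspa2 and Stag3 had under 1% in WT on average. Rpl10l, with 52.6%, 67.1% and 14.5% in WT and 3.26%, 15.6% and 7.24% in the mutant, did not pass (adjusted p 0.115 by the quasi-binomial model), and its groups overlapped.

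**Figure D5:**
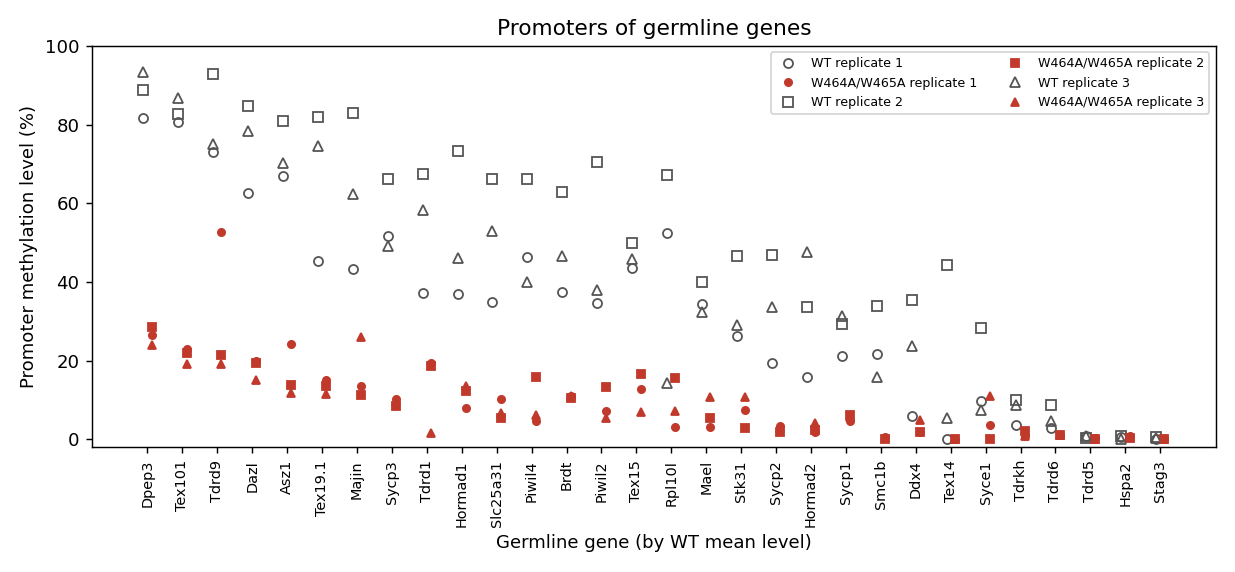
Promoter methylation level (y axis, %) of the 30 testable germline genes (x axis, by WT mean), WT replicates as open grey symbols and W464A/W465A replicates as filled red symbols. Mutant libraries lie below WT libraries at nearly all promoters methylated in WT; Dpep3 keeps about 26% and Smc1b under 1%.

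Of 18 imprinted promoters tested 2 were called lower, those of the imprinted growth regulators Plagl1 and Grb10. Plagl1 had 15.9%, 19.11% and 20.8% in WT and 4.11%, 3.28% and 0% in the mutant (adjusted p 0.00742 by the quasi-binomial model). Grb10, with 3 CpGs, had 37.5%, 63.6% and 72.7% in WT and 7.27%, 25% and 5.56% in the mutant (adjusted p 0.0215). The Grb10 call was lost without WT replicate 2, WT replicate 3, mutant replicate 1 or mutant replicate 3 (adjusted p 0.0561 to 0.125). Nnat had 39.2%, 13.3% and 17.2% in WT and 0.926%, 1.09% and 0.926% in the mutant, and did not pass (adjusted p 0.0566 by the quasi-binomial model). Gnas had 19.5%, 40.9% and 10.2% in WT and 1.86%, 7.92% and 4.09% in the mutant (adjusted p 0.0697). The other imprinted promoters had a WT mean of at most 5.87%. The share called, 11.1%, is near the background of 13.7%, while limma and edgeR each called 4 of the 18.

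Among 20 tested genes of the methylation machinery 2 were called lower, Dnmt3l and Zbtb38, a share of 10% against 13.7% of all promoters. Dnmt3l, the cofactor of the de novo enzymes, had 72.7%, 90% and 87.9% in WT and 12.2%, 4.17% and 5% in the mutant over 3 CpGs (adjusted p 0.00521 by the quasi-binomial model). Zbtb38, a methyl-CpG binding protein, had 37.4%, 63.9% and 25.9% in WT and 5.76%, 7.47% and 2% in the mutant, and its call was lost without any 1 mutant library (adjusted p 0.1 to 0.104). Mutant libraries lay below WT libraries at both. Of 12 tested pluripotency promoters, among them Pou5f1, Nanog and Sox2, 0 were called in the quasi-binomial model, limma or edgeR (3 lower at an unadjusted p below 0.05), and the mean over them was 0.599% to 0.655% in the mutant libraries. The 4 tested stem cell markers, Pou5f1, Nanog, Sox2 and Prdm14, are among these. In WT the mean over the 12 was 1.58%, 6.10% and 1.33%, too low on average for the 10-point drop that a call needs.

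Of 10 tested trophoblast genes, Hand1 and Krt8 were called lower (20%, against 13.7% of all promoters), and neither call held without any 1 mutant library or without WT replicate 2. Hand1, a transcription factor of trophoblast and heart, had 24.3%, 39.6% and 51.6% in WT and 4.46%, 2.5% and 8.89% in the mutant (adjusted p 0.0213 by the quasi-binomial model). Of 10 tested markers of trophoblast, endoderm and neural cells, 3 of them also in the trophoblast list, 1 was called lower, Gata4 (10%). Gata4, an endoderm and heart transcription factor, had 62.5%, 69.6% and 77.8% in WT and 7.69%, 26.5% and 7.69% in the mutant over 3 CpGs, and its call was lost without WT replicate 2 or mutant replicate 1 (adjusted p 0.0580 and 0.0537). Without shared information on the spread the calls of Grb10, Zbtb38, Hand1 and Gata4 were lost (adjusted p 0.0517 to 0.0930). Elf5, whose promoter methylation separates stem cells from trophoblast, had 40.0%, 83.7% and 76.5% in WT and 26.3%, 38.5% and 27.3% in the mutant. Its groups did not overlap, and it did not pass (adjusted p 0.0955 by the quasi-binomial model). Of the defining stem cell promoters, Pou5f1 had 1.45%, 0.543% and 0.330% and Nanog 0%, 11.5% and 2.33% in WT. Sox2 had at most 0.705% there, while Prdm14 had 6.67%, 37.4% and 7.14%. Of 11 tested housekeeping promoters 0 were called in the quasi-binomial model, limma or edgeR, with 1 lower and 1 higher at an unadjusted p below 0.05. Their mean in WT was 1.28%, 0.874% and 0.740%, also too low on average for a 10-point drop. Transcription was not measured.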

How the data were processed

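The authors deposited, for each library, counts of methylated reads and of all reads per CpG, without normalization. Per the submitters' processing notes the tools were cutadapt 1.2.1, Bismark 0.18.1 and Bowtie 1.2 and the builds mm10 and GRCm38; duplicate removal is not given in the sources used here. Every listed position matched a CpG of GRCm38, and genes are from GENCODE M21. All 36 count columns were mapped to samples, and CpGs needed 5 reads in each of the 6 libraries. PCR duplicates cannot be told from molecules, and the spread between replicates sets the precision.

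Library means and context contrasts were tested by exact permutation, two-sided. Tiles (1 kb) and promoters with at least 3 usable CpGs entered a quasi-binomial logistic fit of the 6 libraries' summed counts, with overdispersion squeezed as in limma, an F test and Benjamini-Hochberg adjustment over all features (Python 3.11.15, numpy 2.4.6, scipy 1.17.1). In R 4.3.3, edgeR 4.0.16 and limma 3.58.1 (log2 of methylated over unmethylated reads, each plus 0.5) were alternatives. On simulated counts with 100 features changed by 20 and 100 by 40 points, the model recovered 5 and 50 of them among 261432 tiles, and 44 and 95 among 13858 promoters, and called no unchanged feature. Only these features changed and all shared 1 overdispersion, while 89% of tiles were called in the data. The recovery and the lack of false calls therefore do not carry over to the counts given here.

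Named tiles are the 10 called lower with the largest difference, the 10 with the highest lowest mutant library (at least 5 usable CpGs), and any called higher, with 20 reads per library and 1 tile per gene. Named promoters are the 10 highest and 10 lowest in the mutant among those over 50% in every WT library, and listed genes. The members, lists and rules were chosen with earlier results of these data known. A named tile and a sequence are not reported here.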

Additional observations from a re-analysis of the deposited data

How the results depend on the processing

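Alternatives to the coverage minimum, counting of CpGs, chromosomes used, tile and promoter definition, fit and libraries were run. The mean difference and the repeat, copy number, domain GC and flanking base contrasts kept their direction under all of them. The flanking base contrast was only -0.0112 at 10 reads. The domain GC contrast counts CpGs, and its gradient was not seen among the 9902 domains with at least 50 of the CpGs it compares. Their median retained share was 31.8% in the lowest quintile (11 domains) and 32.6% in the highest (5022 domains). With chromosomes 4, 6, 8, 11 and 12 left out, a choice made after the read shares were seen, the mean difference was -37.4 points and no contrast turned. The density contrast turned to -0.0446 at 20 reads. The gene feature contrast turned to -0.12 at 10 reads, -0.67 at 20 reads and -0.15 with each read counted once. Leaving out 1 library gave -41.2 to -35.0 points for the mean difference, -0.0504 to 0.10 for gene feature, with a change of sign without WT replicate 2, and -0.25 to -0.16 for flanking bases.

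Tiles called lower were 33155 with an offset for the global level, 44834 of 64185 at 10 reads, 554133 of 633975 with at least 1 usable CpG and 1163026 of 2269361 single CpGs. Tiles called higher were 1340 with the offset, 15 without a minimum difference, 0 at 25 points, 4 with at least 1 usable CpG, 0 in 5 kb tiles and 103 single CpGs. Leaving out 1 library gave 216703 to 235452 lower and 1 to 2 higher, 2 without mutant replicate 3. Promoters called lower were 683 without squeezing, 172 with the offset, 2970 without a minimum difference, 490 of 10519 at 10 reads, 2930 with at least 1 usable CpG and 3492 with 1000 bp either side, and 685 to 2220 without 1 library. Promoters called higher were 901 with the offset and 14 without a minimum difference. All counts with the offset, for tiles and promoters, have no minimum difference and are departures from the level that the offset alone gives.

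Replicate numbers did not pair the libraries: same-numbered deviations over tiles had r of 0.015, -0.014 and -0.022. With the replicate block 231087 tiles and 1345 promoters were called lower, and the mean difference was -37.5 points (exact sign-flip permutation p 0.25, the smallest possible). Of the 65 tiles and promoters named, or listed with over 20% in every WT library, 12 lost the call under the block and 23 without squeezing. Those lost under the block include Gata4, Grb10, Tdrd9, Ucp3, Epb42, Dhrs7c and Tlr9. A median of 10 to 23 reads limits what a single CpG can show.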
